A study of Mus musculus with 19 samples.

Results

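The 10 genes described here mark macrophages and monocytes: Ms4a7, Mpeg1, Cd68, C1qa, C1qb, C1qc, Csf1r, Mrc1, Cd163 and Lyz2. They were taken by gene symbol from the 22180 genes tested, each read from its single probe set that carried that symbol alone, and all 10 were measured on all 19 arrays. Affymetrix mouse arrays had been hybridised with RNA from 7 angiosarcomas, 4 aortas, 4 sternocleidomastoid muscles and 4 quadriceps femoris muscles. An angiosarcoma is a malignant tumor whose cells resemble blood vessel endothelium.

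The tumors came from mice of genotype aP2-Cre/+;DicerFlox/-, in which Cre recombinase is driven by the aP2 (Fabp4) promoter and acts on a floxed Dicer1 allele. The aortas and both muscles were from wild type mice, and every sample had the strain mixed C57Bl/6 and 129X1/SvJ. Tumor tissue and genotype therefore changed together and cannot be told apart. The aP2 promoter is known from other work to be active in adipocytes, and also in some macrophages and endothelial cells. No age, sex, batch or animal was given, so the p-values measure only the spread between these samples. Values are log2 intensities, so a difference of 1 is a doubling of the signal, and their precision is limited by the number of arrays. In bulk tissue, more cells of a type and more RNA per cell cannot be told apart.

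Macrophages are phagocytes that live in nearly every tissue and are replenished to a varying extent by blood monocytes. Their survival depends on the receptor encoded by Csf1r, which binds the cytokines Csf1 and Il34, and their development on the transcription factor PU.1, encoded by Spi1. They engulf debris into lysosomes, secrete the complement protein C1q and lysozyme, and carry scavenger receptors such as those encoded by Mrc1 and Cd163. In tumors such cells are called tumor-associated macrophages.

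Several libraries carried markers of other cells. In aortas the mean of the heart muscle list was 9.80 to 10.5, against 6.22 to 6.64 in the muscles, and that of the brown adipocyte list was 10.5 to 11.2. The brown adipocyte list mean was 8.28 to 9.66 in sternocleidomastoid, against 6.50 to 6.58 in quadriceps 1 to 3 and 7.99 in quadriceps 4. Aortas 1 and 2 stood highest on the B cell list (7.27 and 6.74, against 5.28 and 6.28 in aortas 3 and 4). Their T and NK cell list means were also highest, at 6.23 and 5.91, against 5.07 and 5.31 in aortas 3 and 4. Quadriceps 4 stood apart from quadriceps 1 to 3, with an adipocyte list mean of 10.3 against 8.27 to 8.49, and a mean of the 10 macrophage markers of 7.76 against 6.82 to 6.92. Among the tumors the adipocyte list mean ran between 6.36 and 11.0, highest in tumors 4, 5 and 6, and the skeletal muscle list mean between 5.08 and 10.6. The part these other cells had in the results was not tested. Dicer1 ran between 8.17 and 8.80 in tumors and between 8.02 and 8.40 in aortas (difference 0.29 ± 0.12, limma adjusted p = 0.0714). From muscle it differed by -0.06 ± 0.10 in tumors (limma adjusted p = 0.629) and by -0.36 ± 0.12 in aortas (adjusted p = 0.0274). Where the Dicer1 probes lie relative to the floxed exon is not given in the sources used here.

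Tumors carried more RNA of nearly every macrophage marker than either normal tissue. Against aorta, 9 of the 10 passed the threshold of an adjusted p below 0.05 and rose (limma's moderated test, adjusted by Benjamini-Hochberg over all genes), where 18.6% of all genes tested rose and 17.5% fell. Against the mean of both muscles 9 of 10 also rose, where 25.3% of all genes rose and 25.7% fell. The exception in both comparisons was Cd163. For the 9 markers that rose, all 7 tumors lay above all 4 aortas and above all 8 muscles. Such a separation was seen for 12.2% of all genes against aorta and 14.6% against muscle. The median difference over the 10 markers was 1.5 against aorta and 2.05 against muscle, beside medians of -0.02 and -0.04 over all genes. The 2 comparisons share the 7 tumor arrays.

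**Figure D1:**
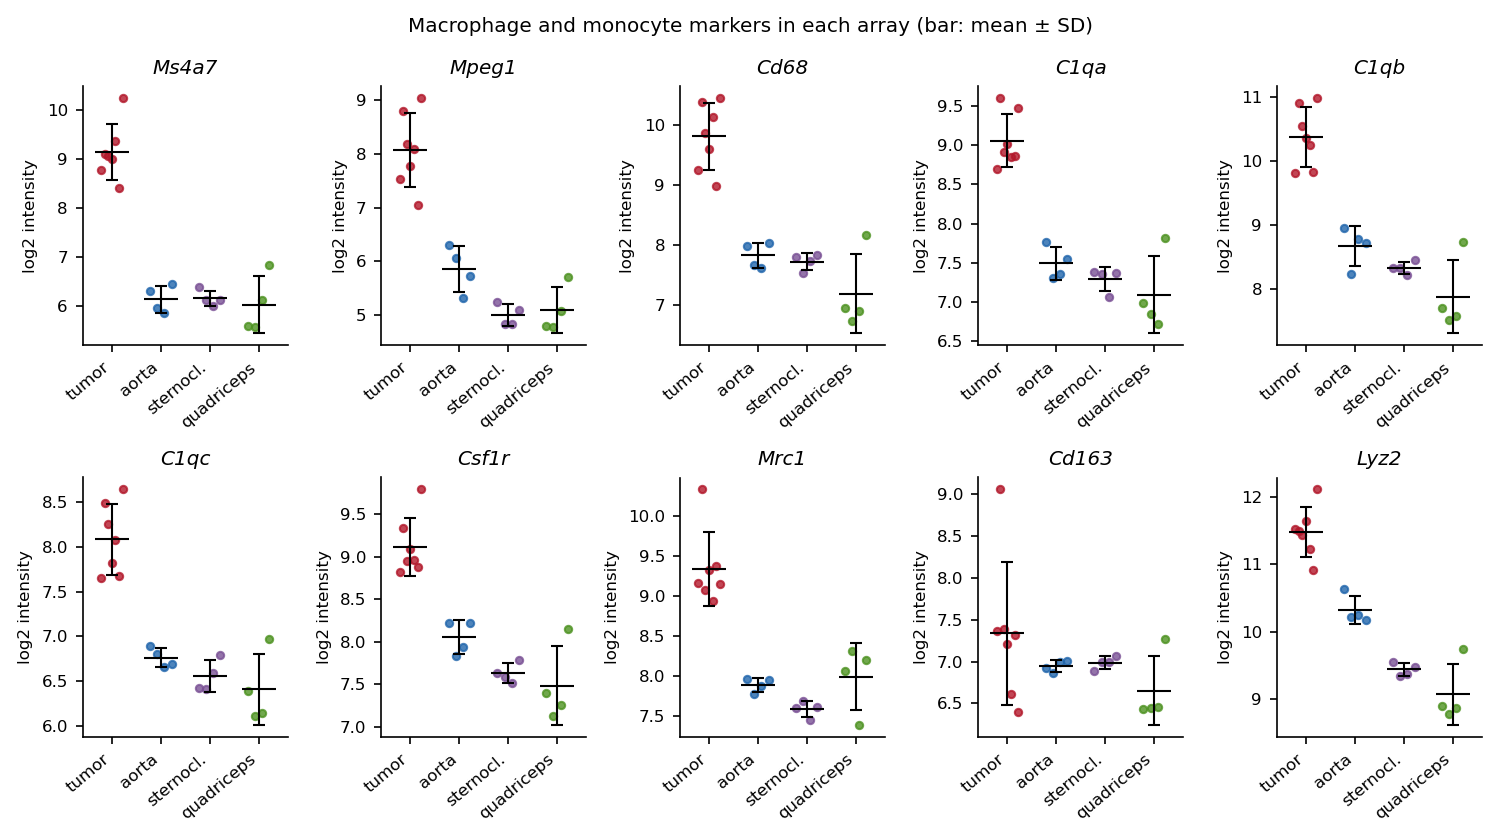
Log2 intensity of each of the 10 markers (vertical axes, a separate range for each gene) in every array, by tissue; horizontal bars are means and whiskers 1 SD. For each marker other than Cd163 the 7 tumors lie above all other arrays, while the Cd163 values of the tumors run between 6.39 and 9.06 and span those of the normal tissues.

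The receptor of the lineage, Csf1r, had a lowest value of 8.82, a median of 8.96 and a highest value of 9.79 in the 7 tumors. In aortas 1 to 4 Csf1r was 8.22, 7.83, 7.94 and 8.22. Sternocleidomastoid 1 to 4 gave 7.63, 7.59, 7.52 and 7.79, and quadriceps 1 to 4 gave 7.40, 7.12, 7.26 and 8.15. No normal sample reached the lowest tumor, and quadriceps 4 was the only muscle in the range of the aortas. The difference of tumor minus aorta was 1.07 ± 0.19 (SE; limma adjusted p = 0.000135), a 2.09-fold higher signal with a 95% confidence interval of 1.6 to 2.74. Against muscle Csf1r was higher by 1.56 ± 0.15 (adjusted p = 4.64e-08).

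Both cytokines that bind this receptor rose with it. Csf1 averaged 8.24 in tumors and 7.66 in aortas, a difference of 0.58 ± 0.19 (limma adjusted p = 0.0219), and was 0.98 ± 0.16 higher than in muscle (adjusted p = 2.72e-05). Il34 averaged 7.41 in tumors and 5.90 in aortas, a difference of 1.52 ± 0.25 (limma adjusted p = 8.62e-05). Over the 14 measured genes of a list of growth factors, receptors and transcription factors of the lineage, 8 rose and 4 fell against aorta (median difference 0.63), and 8 rose and 2 fell against muscle (median 0.93). Over all genes 18.6% rose and 17.5% fell against aorta, and 25.3% rose and 25.7% fell against muscle. The same shares apply to each later list count in tumors. Spi1, encoding PU.1, rose by 1.18 ± 0.15 against aorta (limma adjusted p = 4.02e-06), and Runx1, a transcription factor of blood cell development, by 2.25 ± 0.26 (adjusted p = 1.65e-06). Csf3r, the receptor of the granulocyte growth factor, rose by 2.38 ± 0.36 (adjusted p = 2.79e-05). The 2 largest falls against aorta were those of Pparg (-2.47 ± 0.61, limma adjusted p = 0.00343) and Cebpa (-2.0 ± 0.58, adjusted p = 0.0102), regulators that adipocytes also express. Neither passed against muscle, with differences of 0.17 and 0.49, and the adipocyte list itself was at 10.4 to 10.5 in the aortas.

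Ms4a7 showed the largest difference of the 10 against aorta. It encodes a membrane protein of the MS4A family found mainly in macrophages. Its signal in the 7 tumors ran between 8.41 and 10.25 with a median of 9.05. Aortas 1 to 4 gave 6.30, 5.95, 5.85 and 6.44. The 4 sternocleidomastoid samples gave 6.38, 6.11, 6.00 and 6.12, and quadriceps 1 to 4 gave 5.59, 5.57, 6.12 and 6.83. The normal tissues overlapped one another throughout, and the gap to the lowest tumor was wider than the whole range among the normal samples. Tumors were 8.03-fold above aorta (95% confidence interval 5.42 to 11.9; limma adjusted p = 6.98e-08) and 8.27-fold above muscle (5.98 to 11.4; adjusted p = 8.02e-10).

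Other genes of the MS4A family did not all move with it. Of 12 measured, 6 rose and 2 fell against aorta, and 8 rose and 2 fell against muscle. Ms4a6d rose by 3.14 ± 0.42 against aorta (limma adjusted p = 8.02e-06), with a range of 5.84 to 8.97 in tumors and 4.52 to 4.99 in aortas. Ms4a4a was 2.20 ± 0.45 higher and Ms4a14 1.99 ± 0.24 higher than in aorta (limma adjusted p = 0.000696 and 2.89e-06). Ms4a6d and Ms4a14 averaged 4.72 and 3.98 in aortas, below the median signal of every array (5.35 to 5.48). Signals under that median are called dim here; the files do not show whether they were above background, so the size of a difference from a dim level is uncertain. Ms4a1, which encodes the B cell antigen CD20, fell by 1.31 on the log2 scale (adjusted p = 0.0037) to a dim 4.38 in tumors, in a comparison where aortas 1 and 2 stood highest on the B cell list.

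Mpeg1 encodes perforin-2, a pore-forming protein that acts against engulfed bacteria. Its signal had a lowest value of 7.05, a median of 8.08 and a highest value of 9.04 in the 7 tumors. Aortas 1 to 4 gave 6.30, 6.07, 5.33 and 5.73. Values in sternocleidomastoid were 5.26, 4.84, 4.84 and 5.09, and quadriceps 1 to 4 gave 4.8, 4.79, 5.08 and 5.71. The tumors separated fully, whereas aorta 3 lay within the range of quadriceps. In both muscles the mean of Mpeg1 was dim. Mpeg1 was 4.62-fold higher than in aorta (95% confidence interval 2.99 to 7.13; limma adjusted p = 8.90e-06) and 8.08-fold higher than in muscle (5.64 to 11.6; adjusted p = 3.72e-09). On the log2 scale its difference from muscle, 3.01, lay beside the 3.05 of Ms4a7, and from sternocleidomastoid alone it was 3.06, against 2.98 for Ms4a7.

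Cd68, a glycoprotein of the lysosomal membrane, ran between 8.98 and 10.46 in tumors with a median of 9.88. Aortas 1 to 4 gave 7.98, 7.68, 7.63 and 8.04. Sternocleidomastoid 1 to 4 gave 7.81, 7.53, 7.73 and 7.84, and quadriceps 1 to 4 gave 6.96, 6.74, 6.90 and 8.17. Sternocleidomastoid and aorta overlapped, quadriceps 1 to 3 lay below both, and quadriceps 4 lay above every other normal sample. The differences were 1.98 ± 0.27 from aorta (3.95-fold; limma adjusted p = 1.07e-05) and 2.35 ± 0.23 from muscle (5.11-fold; adjusted p = 3.24e-08).

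Of 13 listed lysosomal and antigen-processing genes measured, 5 rose and 1 fell against aorta (median difference 0.07), and 11 rose and none fell against muscle (median 1.37; 12 and none at limma's unadjusted p under 0.05). Between the normal tissues 8 of them were higher in aorta than in muscle and none lower, with or without adjustment by limma (median 0.40). Over all genes 17% were higher in aorta and 15.3% lower. Ctss, a cathepsin of antigen-presenting cells, rose by 2.03 ± 0.31 against aorta and by 3.12 ± 0.25 against muscle (limma adjusted p = 2.94e-05 and 3.24e-09). Ctsk, a collagen-degrading cathepsin, Gpnmb, a lysosomal glycoprotein, and Lgmn, the endopeptidase legumain, rose by 1.71 ± 0.23, 1.57 ± 0.36 and 1.37 ± 0.20 against aorta (limma adjusted p = 8.89e-06, 0.00162 and 2.09e-05).

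Lyz2 encodes lysozyme M, made by macrophages and by neutrophils. It had a lowest value of 10.91, a median of 11.50 and a highest value of 12.12 in tumors. In aortas 1 to 4 it was 10.63, 10.22, 10.25 and 10.18. The 4 sternocleidomastoid samples gave 9.56, 9.35, 9.37 and 9.48, and quadriceps 1 to 4 gave 8.90, 8.77, 8.86 and 9.75. The ranges of tumor, aorta and muscle did not overlap. Tumors were 2.24-fold above aorta (95% confidence interval 1.70 to 2.96; limma adjusted p = 7.64e-05) and 4.69-fold above muscle (3.73 to 5.90; adjusted p = 5.25e-10). Its close relative Lyz1, whose product is the lysozyme of the gut, did not pass either test. Lyz1 averaged 8.36 in tumors and 8.75 in aortas (difference -0.40 ± 0.40, limma adjusted p = 0.488), and was 0.12 ± 0.33 above muscle (adjusted p = 0.793). How far probes of these near-identical genes share signal was not tested.

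The 3 genes of C1q, the subunits of the protein that starts the classical complement pathway, rose together. C1qb ran between 9.81 and 10.99 in tumors with a median of 10.36. Aortas 1 to 4 gave 8.96, 8.24, 8.79 and 8.72. Values in sternocleidomastoid were 8.33, 8.34, 8.23 and 8.46, and quadriceps 1 to 4 gave 7.71, 7.52, 7.58 and 8.75. Aorta 2 fell among the sternocleidomastoid samples, and quadriceps 4 among the aortas.

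C1qb was 3.27-fold higher in tumors than in aorta (95% confidence interval 2.30 to 4.64; limma adjusted p = 1.44e-05) and 4.82-fold higher than in muscle (3.61 to 6.44; adjusted p = 9.91e-09). C1qa ran between 8.69 and 9.60 in tumors, 7.31 and 7.77 in aortas, 7.07 and 7.38 in sternocleidomastoid, and 6.72 and 7.81 in quadriceps. Its difference was 1.56 ± 0.19 from aorta and 1.86 ± 0.16 from muscle (limma adjusted p = 3.17e-06 and 6.78e-09). C1qc ran between 7.65 and 8.64 in tumors, 6.66 and 6.89 in aortas, 6.42 and 6.79 in sternocleidomastoid, and 6.11 and 6.97 in quadriceps. Its difference was 1.32 ± 0.19 from aorta and 1.6 ± 0.15 from muscle (adjusted p = 1.49e-05 and 3.73e-08).

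The C1q genes lie together on chromosome 4. RefSeq promoter windows, the 250 bases before the start site on assembly GRCm38.p6, were available for C1qb (chr4:136886201-136886450, minus strand) and C1qc (chr4:136892915-136893164, minus strand). They are shown because these 2 neighbours moved together, with the hexamer GAGGAA, a core of PU.1 sites, or its reverse TTCCTC in capitals.
C1qb: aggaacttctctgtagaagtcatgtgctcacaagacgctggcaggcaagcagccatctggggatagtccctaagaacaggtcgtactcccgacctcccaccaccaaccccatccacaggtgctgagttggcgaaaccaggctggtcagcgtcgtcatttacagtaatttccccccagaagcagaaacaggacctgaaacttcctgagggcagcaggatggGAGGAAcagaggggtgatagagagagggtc
C1qc: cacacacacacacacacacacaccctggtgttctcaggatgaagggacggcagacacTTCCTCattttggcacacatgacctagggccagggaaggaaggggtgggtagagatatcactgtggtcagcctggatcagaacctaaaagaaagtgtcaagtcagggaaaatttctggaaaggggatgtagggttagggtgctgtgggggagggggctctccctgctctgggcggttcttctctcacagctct
C1qb held the hexamer once, beginning 30 bases before the start site, and C1qc once on the other strand, at 193 bases before it. Both strands were searched, and 23.3% of the 32851 promoter windows searched held a match, which is a description of the letters and not evidence of binding. For the markers 9 windows of 8 genes were used, and none was used for C1qa and Csf1r. The hexamer lay in 4 of these 9 windows, those of C1qb, C1qc, Cd68 and Mrc1.

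Most of the measured partners of C1q in the complement system rose against aorta. Of 14 measured, 9 rose and none fell against aorta (median difference 0.66; 10 and 1 at limma's unadjusted p under 0.05), and 13 rose and none fell against muscle, with or without adjustment (median 1.54). Itgam, the alpha subunit of complement receptor CR3, rose by 2.13 ± 0.35 against aorta, and C3ar1, the receptor of the fragment C3a, by 1.92 ± 0.28 (limma adjusted p = 7.01e-05 and 2.44e-05). Vsig4, a complement receptor of tissue macrophages, was 1.91 ± 0.33 higher (adjusted p = 0.000131) than a dim 4.54 in aorta. Cd93, which resembles C1q receptors and is also an endothelial gene, rose most, by 2.84 ± 0.18 (adjusted p = 1.24e-09). All 12 endothelial markers rose as well in both comparisons, with list means of 10.05 to 10.99 in tumors and 8.47 to 8.64 in aortas.

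Mrc1 and Cd163 encode scavenger receptors: the mannose receptor, which some endothelial cells also carry, and the receptor of haptoglobin-bound haemoglobin. Mrc1 had a lowest value of 8.94, a median of 9.16 and a highest value of 10.34 in tumors. Aortas 1 to 4 gave 7.96, 7.77, 7.88 and 7.95. Sternocleidomastoid 1 to 4 gave 7.60, 7.69, 7.45 and 7.61, and quadriceps 1 to 4 gave 8.07, 8.32, 7.39 and 8.20. All tumors lay above all normal samples, and quadriceps spanned both other tissues. The difference was 1.45 ± 0.21 from aorta (2.72-fold; limma adjusted p = 1.53e-05) and 1.55 ± 0.17 from muscle (2.92-fold; adjusted p = 2.14e-07).

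Cd163 did not separate the tissues. In tumors 1 to 7 its values were 7.36, 9.06, 7.39, 7.21, 6.61, 7.31 and 6.39. Aortas 1 to 4 gave 6.92, 6.86, 7.0 and 7.0. The 4 sternocleidomastoid samples gave 6.89, 7.0, 7.0 and 7.07, and quadriceps 1 to 4 gave 6.44, 6.44, 6.46 and 7.27. Tumors 5 and 7 lay below every aorta, tumors 1 to 4 and 6 above every aorta, and tumor 2 far above all others. The SD among tumors was 0.86, against 0.07 among aortas. The difference of tumor minus aorta was 0.39 ± 0.33 (95% confidence interval -0.30 to 1.08; limma adjusted p = 0.395), and that from muscle 0.52 ± 0.27 (-0.05 to 1.08; adjusted p = 0.122). With tumors 1 to 4 alone, Cd163 was 0.81 above aorta and 0.94 above muscle (adjusted p = 0.0419 and 0.00621), and without tumor 7 it was 0.67 above muscle (adjusted p = 0.0375). With tumors 5 to 7 alone the differences were -0.17 and -0.05 (adjusted p = 0.625 and 0.869). The tumors were divided there because the title codes of tumors 5 to 7 come after those of the normal tissues; whether this marks separate processing is not given in the sources used here and was not tested.

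These 2 receptor genes were picked after their values in the tumors were seen. Their promoter windows are shown with the same hexamer in capitals. That of Mrc1 lies at chr2:14229164-14229413 on the plus strand and that of Cd163 at chr6:124304401-124304650 on the plus strand.
Mrc1: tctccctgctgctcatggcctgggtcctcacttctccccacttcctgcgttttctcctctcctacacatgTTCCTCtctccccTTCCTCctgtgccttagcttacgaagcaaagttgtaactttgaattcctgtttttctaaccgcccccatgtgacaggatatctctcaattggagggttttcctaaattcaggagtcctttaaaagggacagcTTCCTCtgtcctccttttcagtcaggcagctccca
Cd163: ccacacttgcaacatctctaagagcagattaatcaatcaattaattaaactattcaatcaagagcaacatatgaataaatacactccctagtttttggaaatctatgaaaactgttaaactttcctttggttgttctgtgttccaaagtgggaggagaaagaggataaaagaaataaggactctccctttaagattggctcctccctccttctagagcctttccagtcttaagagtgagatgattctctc
Mrc1 held it 3 times, each on the other strand, and the Cd163 window did not hold these letters. Nor did the windows of Ms4a7, Mpeg1 and Lyz2, which rose in tumors. Any link between the hexamer and the differences was not tested.

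**Figure D2:**
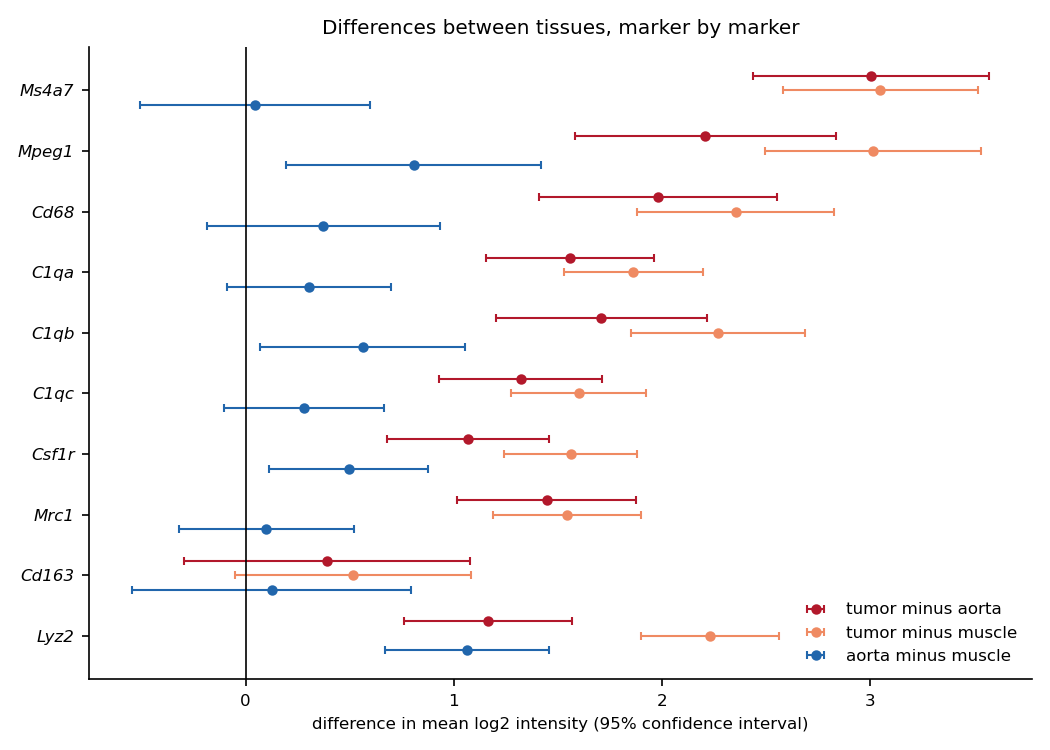
Difference in mean log2 intensity (horizontal axis) of tumor minus aorta, tumor minus muscle and aorta minus muscle for each marker, with 95% confidence intervals from limma. The intervals of both tumor comparisons lie above 0 for each marker other than Cd163. Against aorta Ms4a7 lies farthest from 0, at 3.0, and against muscle Ms4a7 (3.05) and Mpeg1 (3.01) lie side by side.

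Among the normal tissues the markers differed far less. Aorta minus muscle was positive for 10 of 10, with a median of 0.34 beside 0.01 over all genes, but 3 passed, where 17% of all genes rose and 15.3% fell. Without adjustment 4 passed. Lyz2 was 1.06 ± 0.19 higher in aorta (limma adjusted p = 0.000168) with all 4 aortas above all 8 muscles, a separation seen for 14.6% of all genes. Mpeg1 was 0.81 ± 0.29 and Csf1r 0.49 ± 0.18 higher (adjusted p = 0.0405 and 0.0432), with overlapping samples. Each of these 2 calls was lost when any of 9 of the 12 arrays was left out, with adjusted p of 0.0518 to 0.149 for Mpeg1 and 0.0593 to 0.129 for Csf1r. With aortas 3 and 4 alone, an alternative chosen after seeing the data because of the B cell list, Mpeg1 was 0.48 and Csf1r 0.52 above muscle (adjusted p = 0.442 and 0.151). Without quadriceps 4, C1qa and C1qb also passed.

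Between the muscles, sternocleidomastoid minus quadriceps was positive for 8 of 10 markers, and none passed with limma's test, adjusted or at an unadjusted p under 0.05. In this comparison 0.234% of all genes rose and 0.198% fell. The largest difference was that of Cd68, at 0.54 ± 0.31 (95% confidence interval -0.11 to 1.18; limma adjusted p = 0.811). Mrc1 ran the other way, at -0.40 ± 0.23 (-0.89 to 0.08). The brown adipocyte list also stood higher in sternocleidomastoid, with 2 of 7 genes called and a median difference of 2.20, and its part in these values was not tested.

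In order of mean signal, tumor came first for each of the 10 markers. The step down to the next tissue passed for 9 and not for Cd163, where tumor exceeded sternocleidomastoid by 0.35 ± 0.33 (limma adjusted p = 0.419). The next tissue was aorta for Mpeg1, Cd68, C1qa, C1qb, C1qc, Csf1r and Lyz2, sternocleidomastoid for Ms4a7 and Cd163, and quadriceps for Mrc1. Over all genes 23.2% rose in tumors against sternocleidomastoid and 22.8% against quadriceps, and 14.2% were higher in aorta than in sternocleidomastoid. Below tumor, the one step between neighbours that passed was that of Lyz2, by 0.88 ± 0.22 for aorta over sternocleidomastoid (adjusted p = 0.00447).

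The log2 signals of the markers did not rise by equal amounts, as log2 ratios to Cd68 in the same array show. The probe sets differ in their range of signal, and its part in the ratios was not tested. Exact two-sided permutation tests over arrays were run for 36 ratios and adjusted over them by Benjamini-Hochberg. In tumors the ratio of Ms4a7 was 1.02 above that in aorta (exact permutation adjusted p = 0.0176), with every tumor above every aorta. It was 0.69 above that in muscle (exact permutation adjusted p = 0.0145), with overlapping samples. With Csf1r in place of Cd68 as the denominator the ratio of Ms4a7 was 1.94 above aorta and 1.49 above muscle. The ratio of Csf1r was 0.91 lower than in aorta and 0.79 lower than in muscle (differences of -0.91 and -0.79, exact permutation adjusted p = 0.0242 and 0.00746). Every tumor lay below every aorta, while tumors and muscles overlapped.

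Cd163 departed furthest from Cd68. Its ratio differed by -1.59 between tumor and aorta (exact permutation adjusted p = 0.0545), with every tumor below every aorta, and by -1.84 between tumor and muscle (adjusted p = 0.00559), with every tumor below every muscle. With Csf1r as the denominator these were -0.68 and -1.05 (adjusted p = 0.281 and 0.0121). Mpeg1 rose relative to Cd68 against muscle by 0.66 (exact permutation adjusted p = 0.0176), while its difference against aorta, 0.23, did not pass (adjusted p = 0.284).

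C1qc had a ratio to Cd68 that was lower in tumors, by -0.66 against aorta and -0.75 against muscle (exact permutation adjusted p = 0.0242 and 0.00746), but it turned to 0.25 and 0.04 with Csf1r as the denominator. Lyz2 behaved likewise against aorta, at -0.82 (exact permutation adjusted p = 0.0397) and 0.10 with Csf1r. C1qa was lower against muscle, at -0.49 (exact permutation adjusted p = 0.0397), but with Csf1r it passed in the other direction, at 0.30 (exact permutation adjusted p = 0.00653). Against aorta, leaving out 1 of 5 arrays ended the call of C1qc, 1 of 10 arrays that of Lyz2 and aorta 3 that of Csf1r, with adjusted p of 0.0514 to 0.0923, and against muscle 1 of 9 arrays that of C1qa. Fewer arrays allow fewer regroupings, which raises the smallest p of the exact test, so a lost call need not mean a changed ratio. Without aorta 3 the ratio of Csf1r still differed by -0.88. Between aorta and muscle the ratio of Lyz2 alone passed, at 0.69 (exact permutation adjusted p = 0.0145; 0.57 with Csf1r). Between sternocleidomastoid and quadriceps none of 9 ratios passed, where the smallest p that 4 against 4 arrays allow is 0.0286.

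**Figure D3:**
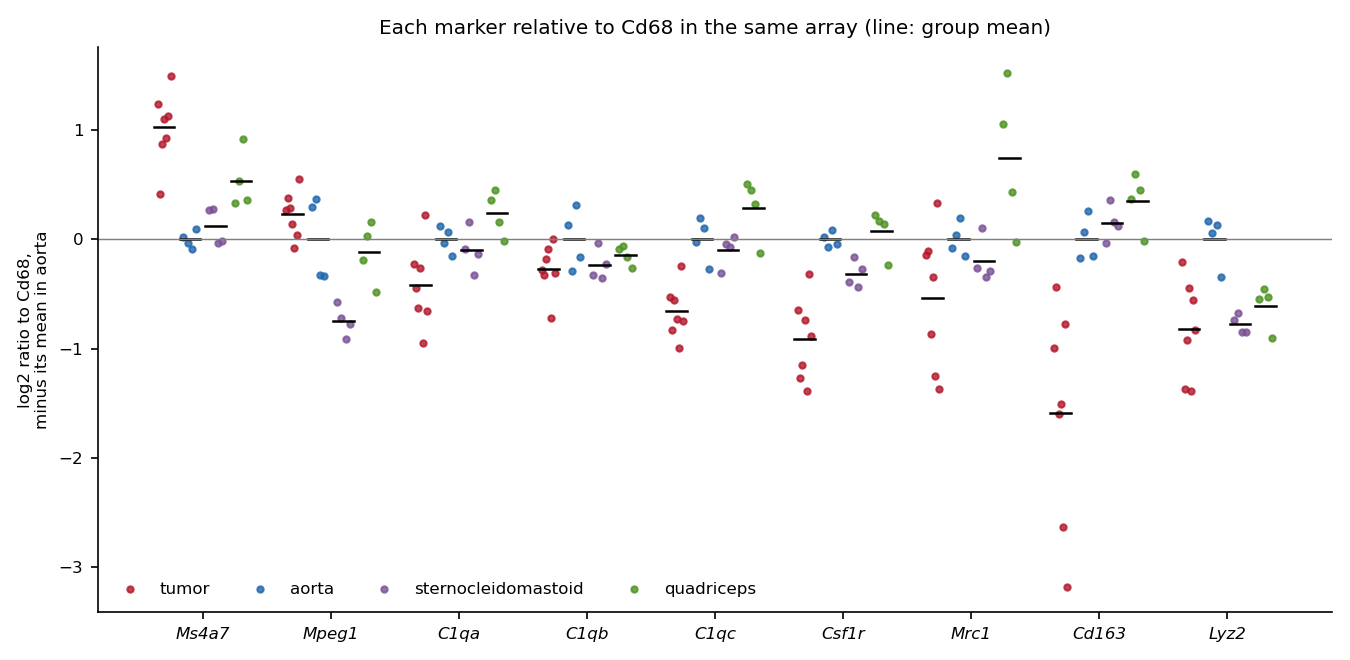
Log2 ratio of each marker to Cd68 in the same array, shifted so that the aorta mean is 0 (vertical axis); points are arrays and lines group means. Tumor points lie above the aortas for Ms4a7 and below them for Csf1r and Cd163.

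Within the 7 tumors most of the markers rose and fell together. Averaged over the 10, tumor 2 lay 0.57 and tumor 7 lay 0.45 above the tumor mean, while tumor 6 lay 0.45 and tumor 1 lay 0.32 below it (values of -0.45 and -0.32). Of the 45 pairs of markers 40 had a positive Pearson r, with a median of 0.753. With exact permutation tests and adjustment over the 45 pairs, 13 passed by r and 4 by Spearman's rho. All markers of a tumor were read on the same array with the same scaling, and the skeletal muscle list was highest in tumor 2.

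Mpeg1 followed Cd68 with r = 0.964 (exact permutation adjusted p = 0.0223) and rho = 0.964 (adjusted p = 0.0312) over 7 tumors, and r stayed at 0.930 without the 2 tumors farthest from the median of Mpeg1. C1qb followed C1qc with r = 0.956 (exact permutation adjusted p = 0.0304) and rho = 0.964 (adjusted p = 0.0312), and r = 0.913 without the 2 farthest from the median of C1qb. Ms4a7 followed Cd68 with r = 0.825 (exact permutation adjusted p = 0.0427) and rho = 0.964 (adjusted p = 0.0312), and r = 0.781 without the 2 farthest from the median of Ms4a7. Lyz2 was less bound to the others: its relation to Ms4a7 had r = 0.808 (exact permutation adjusted p = 0.0978). Without the 2 tumors farthest from the median of Ms4a7 r was -0.755, so the relation rested on those.

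The scavenger receptors followed another order. Mrc1 and Cd163 both peaked in tumor 2, at 1.0 and 1.72 above their tumor means, whereas tumor 7, which had the highest values of Ms4a7, Mpeg1, Cd68, C1qb, C1qc, Csf1r and Lyz2, held the lowest Cd163 value, 0.94 below the tumor mean (-0.94). Their correlation had r = 0.908 (exact permutation adjusted p = 0.0667) and rho = 0.464 (adjusted p = 0.523). It fell to r = 0.171 without the 2 tumors farthest from the median of Mrc1. Cd163 and Ms4a7 had r = -0.425 (exact permutation adjusted p = 0.408) and rho = -0.393 (adjusted p = 0.593). Without the 2 tumors farthest from the median of Ms4a7 r was -0.192, with tumor 2, highest in Cd163, still included.

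**Figure D4:**
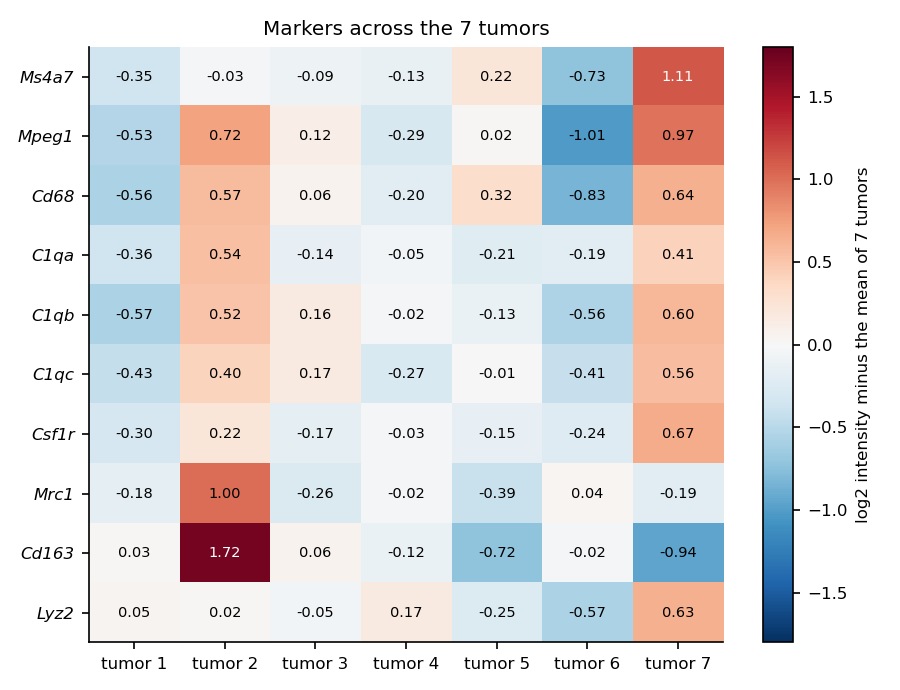
Log2 intensity of each marker minus its mean over the 7 tumors (colour and printed value), one column for each tumor. Tumors 2 and 7 are high and tumors 1 and 6 low for most markers, while Cd163 is highest in tumor 2 (1.72) and lowest in tumor 7 (-0.94).

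The genes whose profile over the 7 tumors was most like the mean of the 10 markers were, of 4729 ranked by Pearson r, Tlr13 (0.995), Slfn1 (0.981), Tnfaip8l2 (0.976), Milr1 (0.974), Tyrobp (0.973), Cyfip2 (0.972), Rnf149 (0.967) and Pla2g7 (0.966). Tlr13 is an endosomal receptor for bacterial RNA, and Tyrobp the adaptor of activating receptors on myeloid cells. With 7 points and 4729 genes, high values of r are found without any relation, and they are given as a description.

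Receptors that work beside these markers rose in most cases. Of 17 Fc, scavenger and pattern recognition receptors with their adaptors, 13 rose and 2 fell against aorta (median difference 1.55), and 14 rose and 1 fell against muscle (median 1.69). Fcer1g, the shared signalling chain of Fc receptors, rose by 2.13 ± 0.20 against aorta and 2.87 ± 0.17 against muscle (limma adjusted p = 1.47e-07 and 3.55e-11). Clec7a, the receptor of fungal glucans, rose by 2.23 ± 0.25, the IgG receptor Fcgr4 by 2.17 ± 0.24 and the scavenger receptor Msr1 by 2.11 ± 0.35 against aorta (limma adjusted p = 1.09e-06, 7.72e-07 and 9.25e-05), where Fcgr4 was at a dim 4.24 in aorta. Timd4, a receptor for dying cells on long-lived tissue macrophages, fell by 1.25 on the log2 scale against aorta (adjusted p = 7.68e-06) and by 0.51 against muscle (adjusted p = 0.00429), to a dim 5.13 in tumors.

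Of 15 resident macrophage genes 8 rose and 2 fell against aorta (median difference 0.49), and 10 rose and 1 fell against muscle (median 0.66). Among them Adgre1, which encodes the antigen F4/80, rose by 1.62 ± 0.20 against aorta (limma adjusted p = 2.23e-06), Pf4 by 1.99 ± 0.37 (adjusted p = 0.000286) and Stab1 by 2.05 ± 0.18 (adjusted p = 6.79e-08); Stab1 is also made by some endothelial cells and Pf4 by platelets. Of 13 monocyte genes 8 rose and 1 fell against aorta (median difference 1.37), and 9 rose and 1 fell against muscle (median 1.8). Plac8 rose by 1.69 ± 0.28, Cd14, the co-receptor of endotoxin, by 1.68 ± 0.38 and Chil3 by 2.23 ± 0.79 against aorta (limma adjusted p = 7.09e-05, 0.00145 and 0.0333), the last with a range of 3.96 to 9.69 among tumors and a dim mean of 3.98 in aortas. Whether the resident and monocyte lists differed from each other was not tested. Itgam is also among these monocyte genes and Vsig4 among the resident ones, so their counts share genes with that of the complement partners.

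Of 13 measured chemokines and other signals that attract monocytes, 10 rose and none fell against aorta (median difference 1.52), and 12 rose and none fell against muscle (median 1.09). The counts were the same at limma's unadjusted p under 0.05. Ccl2, the main ligand of the monocyte receptor Ccr2, ran between 9.03 and 10.47 in tumors, 6.12 and 6.44 in aortas, 6.16 and 6.78 in sternocleidomastoid, and 5.93 and 6.21 in quadriceps. It rose by 3.40 ± 0.21 against aorta and 3.40 ± 0.17 against muscle (limma adjusted p = 1.15e-09 and 5.99e-12). Ccl3, Ccl7 and Ccl8 rose by 2.69 ± 0.40, 2.27 ± 0.26 and 2.05 ± 0.27 against aorta (limma adjusted p = 2.83e-05, 1.09e-06 and 7.33e-06), where Ccl3 was at a dim 4.79 in aorta.

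Of 17 genes known from activated and tumor-associated macrophages 12 rose and 2 fell against aorta (median difference 1.42), and 15 rose and none fell against muscle, with or without adjustment by limma (median 1.54). The inflammatory cytokine gene Il1b rose by 4.46 ± 0.35 against aorta (limma adjusted p = 1.27e-08), with tumors between 6.95 and 9.36 and aortas at a dim 3.61 to 4.36. Hmox1, the haem-degrading enzyme, rose by 3.21 ± 0.44, the elastase Mmp12 by 2.02 ± 0.28 and arginase 1, Arg1, by 2.21 ± 0.78 (limma adjusted p = 1.03e-05, 1.05e-05 and 0.0312), where Mmp12 was at a dim 4.79 in aorta. Hmox1 at 11.6 and Arg1 at 10.75 were both highest in tumor 2, the tumor with the highest Mrc1 and Cd163.

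Markers of other white blood cells were mixed. Of 16 genes shared by leukocytes 13 rose and none fell against aorta (14 and none at limma's unadjusted p under 0.05), and 16 rose against muscle. Lcp2 and Lcp1 rose by 2.02 ± 0.32 and 1.68 ± 0.26 against aorta (limma adjusted p = 5.83e-05 and 3.88e-05). Cyba and Cybb rose by 1.57 ± 0.16 and 1.45 ± 0.24 (adjusted p = 4.35e-07 and 6.71e-05). Ptprc, the common leukocyte antigen, picked after its values were seen, averaged 8.44 in tumors and 7.43 in aortas (difference 1.0 ± 0.41, limma adjusted p = 0.0641). Against muscle Ptprc rose by 2.66 ± 0.34 (adjusted p = 1.48e-06). Of 12 neutrophil genes 6 rose and none fell against aorta (7 and 1 unadjusted), and 7 rose and 1 fell against muscle, Retnlg by 2.74 ± 0.85 against aorta (limma adjusted p = 0.0161) with a tumor range of 3.84 to 10.74, highest in tumor 2, and a dim mean of 3.72 in aortas. Lyz2 and Csf3r are neutrophil genes as well. S100a8 and S100a9 rose by 2.13 ± 0.50 and 1.69 ± 0.29 against aorta (limma adjusted p = 0.00229 and 0.000117), from dim means of 3.71 and 4.34. For both, every tumor lay above every aorta. The granule genes Mpo and Elane, picked after their values were seen, were at 4.94 and 5.39 in tumors and 5.06 and 5.63 in aortas. Mpo was dim in both tissues.

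Of 11 T and NK cell genes none rose and 5 fell against aorta, Cd3g by 1.58 on the log2 scale (limma adjusted p = 0.0308) to a dim 5.23 in tumors, and none passed against muscle. At limma's unadjusted p under 0.05, 6 fell and none rose against aorta, and 1 rose and none fell against muscle. Of 7 B cell genes none rose, with or without adjustment, and 5 fell against aorta, Cd79a by 1.51 on the log2 scale (adjusted p = 0.00603), and 1 rose and 1 fell against muscle. The mean of the B cell list ran between 5.09 and 6.14 in tumors and between 5.28 and 7.27 in aortas. That of the T and NK cell list was 6.23 and 5.91 in aortas 1 and 2. In aortas 3 and 4 it was 5.07 and 5.31, within the tumor range of 4.88 to 5.44. The part of aortas 1 and 2 in these falls was not tested. Of 8 dendritic cell genes 2 rose and 1 fell against aorta, and 5 rose and none fell against muscle, with or without adjustment by limma. At limma's unadjusted p under 0.05, 4 rose and 1 fell against aorta. Of 9 mast cell genes Kit and Hdc rose in both comparisons, none fell against aorta with or without adjustment by limma, and 1 fell against muscle (3 unadjusted). These 2 of 9 were near the share of all genes that rose, 18.6% against aorta and 25.3% against muscle. So were the 2 of 8 dendritic cell genes against aorta. Hdc was at a dim 5.12 in aorta.

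**Figure D5:**
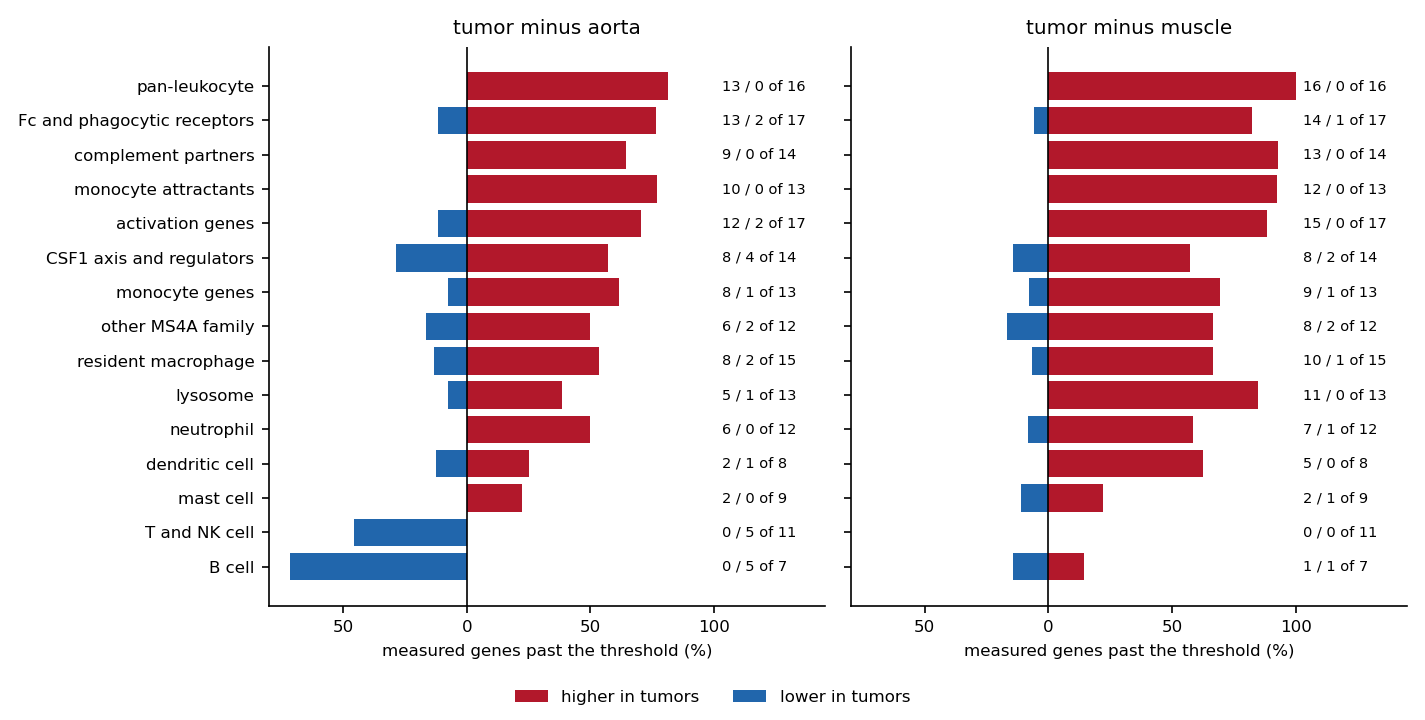
Share of the measured genes of each list (horizontal axis, percent) that rose in tumors (right) or fell (left) past an adjusted p of 0.05, against aorta and against the mean of both muscles, with the counts printed as rose / fell of measured. Lists of phagocyte genes lie mostly to the right in both panels, and the T and B cell lists lie to the left against aorta. Over all genes 18.6% rose and 17.5% fell against aorta, and 25.3% rose and 25.7% fell against muscle.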

How the data were processed

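RNA of 19 samples was hybridised to Affymetrix mouse arrays, 1 array a sample, after extraction with the Qiagen miRNeasy mini kit, per the labels' protocols. Per the labels no log base is named; a range between 1.59 and 13.8 with none below 0 led the deposited values to be taken as log2 intensity. Partek 6.6 is named in the submitters' processing notes, without a role, and no source used here gives the normalization. The arrays had nearly the same distribution (largest gap after sorting 0.43), and no scaling was added.

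Of 41345 probe sets, 23521 carried 1 gene symbol in the platform annotation, 1814 several and 16010 none. Where a gene had several single-symbol probe sets (1082 of 22180 genes), the one with the highest mean over 19 arrays was kept. One limma fit (version 3.58.1, R 4.3.3) with lmFit and eBayes over all 19 arrays and 22180 genes gave each difference, adjusted by Benjamini-Hochberg at 0.05, and muscle was the mean of both muscle groups. The fit was tested on simulated data.

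Ratios to Cd68 and correlations between markers used exact permutation tests over arrays. The 10 markers and all gene lists were chosen with earlier results of these data known. From each list the text names up to 4 genes with the largest differences against aorta and up to 2 against muscle. Csf1, Il34, Spi1, Timd4, Ptprc, Mpo, Elane and Lyz1 were named outside this rule, after their values were seen. Like-profile genes needed a tumor SD of at least 0.3. Promoters are from RefSeq. Replicate numbers follow the order of deposition and pair nothing. Alternatives changed the scaling, the filter on dim genes, the probe set per gene, the eBayes options, the arrays in the fit, the threshold, the muscle group and the samples.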

Additional observations from a re-analysis of the deposited data

Results flagged for a closer look

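A sample's gap to its nearest neighbour exceeded Dixon's 95% critical value in 8 of 40 groups tested (10 markers in 4 tissues). Chance gives about 1 in 20 for independent groups. These groups are not independent, because the markers share the same arrays, and quadriceps 4 and tumor 2 were each flagged for more than 1 marker. Quadriceps 4 stood above quadriceps 1 to 3 for Cd68 (8.17, the next 6.96), C1qb (8.75, the next 7.71), Cd163 (7.27, the next 6.46) and Lyz2 (9.75, the next 8.90). This muscle also had the highest adipocyte list mean of the quadriceps, 10.3. Tumor 2 stood above the other tumors for Mrc1 (10.3, the next 9.38) and Cd163 (9.06, the next 7.39). Lyz2 was high in aorta 1 (10.6, the next 10.2), and C1qa was low in sternocleidomastoid 3 (7.07, the next 7.36). The part of other cell types in these values was not tested.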

How the results depend on the processing

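The 9 markers that rose against aorta and the 9 that rose against muscle kept their direction and passed under each alternative run, with every single array left out, and with tumors 1 to 4, tumors 5 to 7, or (chosen after seeing the data) tumors 1, 2, 3 and 7 or aortas 3 and 4 alone. The count against muscle ran between 9 and 10 when 1 array was left out. No member had more than 1 probe set, so averaging probe sets changed none. Cd163 turned to -0.17 against aorta and -0.047 against muscle with tumors 5 to 7 alone; the cause was not tested. Centring each array on 12 housekeeping genes moved the median of all genes by -0.09 in tumor minus aorta, -0.22 in tumor minus muscle and -0.13 in aorta minus muscle, and the share of higher among called genes went to 40.2%, 26% and 34.5%, where it had been 51.5%, 49.7% and 52.6%. These 12 genes themselves differed between tissues: 5 rose and 2 fell in tumors against aorta, and 6 rose and 4 fell against muscle. Centring on the median gene gave 42.5% in tumor minus muscle. Over the 3 alternative scalings the listed genes that fell against muscle numbered 6 to 11, where 6 had fallen.

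In aorta minus muscle the count of 3 became 1 with median centring, housekeeping centring, quantile normalization, a threshold of 0.01, sternocleidomastoid alone and aortas 3 and 4 alone, and ran between 1 and 5 when 1 array was left out. Values near 0 turned there, for Ms4a7 (-0.017 with median centring and with quantile normalization, -0.020 with sternocleidomastoid alone, -0.085 with housekeeping centring, and between -0.057 and 0.18 with 1 array left out, below 0 without aorta 1, aorta 4, quadriceps 1 or quadriceps 2), Mrc1 (-0.029 with housekeeping centring, -0.10 with quadriceps alone, and between -0.00065 without quadriceps 3 and 0.15 with 1 array left out) and Cd163 (-0.0045 with housekeeping centring, -0.044 with sternocleidomastoid alone). Between the muscles Ms4a7 ran between -0.023 and 0.40 with 1 array left out, below 0 without quadriceps 1 or 2, and Mpeg1 between -0.19 and 0.12, above 0 without quadriceps 4.

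With Csf1r as the denominator, ratios that passed numbered 5 higher and 0 lower in tumor minus aorta (with Cd68, 1 and 3), 6 and 1 in tumor minus muscle (with Cd68, 2 and 4), and 3 lower in aorta minus muscle (with Cd68, 0). In tumor minus aorta C1qa, C1qb, C1qc, Mrc1 and Lyz2 turned to 0.49, 0.64, 0.25, 0.38 and 0.10 (C1qa and C1qb passed), in tumor minus muscle C1qa, C1qb, C1qc and Lyz2 to 0.30, 0.71, 0.039 and 0.67 (all but C1qc passed), and in sternocleidomastoid minus quadriceps C1qa, C1qb, C1qc, Cd163 and Lyz2 to 0.054, 0.30, 0.00069, 0.19 and 0.22. By construction these ratios share Csf1r, which itself fell relative to Cd68. The higher counts in both tumor comparisons include the ratio of Cd68 to Csf1r. That ratio is the reverse of one counted as lower with Cd68. When 1 array was left out, the lower ratios that passed ran between 0 and 4 in tumor minus aorta and between 3 and 4 in tumor minus muscle. With fewer regroupings the smallest p of the exact test is also larger there. No paired analysis was possible because the replicate numbers follow the order of deposition and the labels pair no samples. Signal over background was not given, which limits what the dim Mpeg1 values of muscle and the other dim values can show.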
